A study of Mus musculus with 6 samples.

Results

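The potassium channel genes described here are the protein-coding mouse genes whose symbol in the GENCODE vM21 annotation begins with Kcn. They comprised 93 genes of the 34289 with a listed transcript, and 72 of the 93 had enough reads for testing among 16985 tested genes. Potassium channels let potassium leave the cell, so they set the resting potential, end action potentials and limit repetitive firing. Pore subunits assemble as multimers, and auxiliary subunits change how fast a channel opens, how long it stays open and how much of it reaches the membrane. In newborn cortical neurons the set of channels changes as the cells migrate and begin to fire. In the order used below, the 93 genes held 30 pore subunits of voltage-gated (Kv) channels, 10 silent Kv subunits, 17 auxiliary subunits and regulators, 8 calcium- or sodium-activated channels, 14 inward rectifiers and 14 tandem-pore (K2P) leak channels. The annotation holds 94 such genes, and the remaining 1 was not analysed here.

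The libraries came from postmitotic neurons of mouse cortices at embryonic day 14.5. The 3 mutant libraries came from Rp58-/- embryos, which lack both functional copies of Rp58, and the 3 control libraries came from Rp58+/+ embryos, which have both. Rp58, now named Zbtb18, encodes a zinc finger repressor that cortical neurons need in order to mature. The labels give neither the strain nor the way in which neurons were isolated, and they leave unsaid whether each library was made from its own embryos, so p-values measure the spread between these libraries, which may be technical in part.

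Total estimated counts lay between 53044306 and 56472475 in the mutants and between 34645505 and 75892649 in the controls. Mutants 1 and 2 and control 1 shared 1 fixed gap, in bases, between transcript length and effective length (fixed-length libraries). In mutant 3 and controls 2 and 3 the gap was estimated per library, between 133.7 and 139.2 bases (estimated-length libraries). The types also differed in RNA content. Mitochondrial transcripts held 3.58 to 5.15% of counts in fixed-length and 16.4 to 17.5% in estimated-length libraries. The highest TPM of a transcript was 1.759e+04 to 2.355e+04 and 4.867e+05 to 5.311e+05, respectively (TPM is a length-corrected share of transcripts). The sources used here do not say what separates the library types. Because the types are unevenly spread over the genotypes, the genotype effect was fitted with a term for library type. In that fit, 42 of the 72 tested potassium channel genes also differed between library types, against 70.2% of all tested genes. Zbtb18 had 46.7, 45.7 and 538 CPM (a gene's counts relative to its library's normalized total) in mutants 1, 2 and 3, against 1902, 1587 and 1697 CPM in controls 1, 2 and 3. The log2 fold change was -3.48 ± 0.81 (SE, edgeR adjusted p = 0.0337), and the call was lost without control 3 (adjusted p = 0.0511), mutant 1 (0.119) or mutant 2 (0.0899). The effect differed between library types, at -5.36 in fixed-length and -1.61 in estimated-length libraries (adjusted p = 0.00963). Mutant 3 held more Zbtb18 transcript than the other mutants. As it is the only estimated-length mutant, a trait of this mutant and its library type cannot be told apart here. Where a channel gene lost its call without mutant 3, this is said.

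Cortical glutamatergic markers were present in both genotypes, with summed levels of 2497 to 3099 CPM in mutants and 4725 to 4832 CPM in controls. Of these 9 markers, 1 rose and 7 fell. Intermediate progenitor markers summed to 578.3 to 748.8 CPM in mutants and 349.9 to 552.4 CPM in controls, and 3 of 5 rose. Cycling-cell markers summed to 22.1 to 35.6 CPM in mutants and 13.6 to 19.6 CPM in controls, and 4 of 7 rose. In the radial glia list of 8, summing to 100.4 to 211.3 CPM in mutants and 106.7 to 237.1 CPM in controls, 3 rose and 3 fell. Pan-neuronal markers summed to 3756 to 6021 CPM in mutants and 4657 to 7227 CPM in controls, with 2 of 7 higher and 3 lower, and in the Cajal-Retzius list 1 of 5 rose. The interneuron list summed to 90.1 to 158.5 CPM in mutants and 0.954 to 2.82 CPM in controls mostly through Npy, and 3 of 6 tested rose, Npy, Dlx5 and Slc32a1. Dlx5 had 1.08, 1.05 and 0.324 CPM in mutants 1, 2 and 3, against at most 0.0893 CPM in controls, and Slc32a1 had 0.598, 0.318 and 0.506 CPM in mutants, against at most 0.0474 CPM in controls. Gad1, Gad2, Lhx6, Dlx1, Dlx2 and Sst stayed at or below 0.992 CPM in every library, and of these Gad2, Lhx6 and Dlx1 were tested and not called. Astrocyte markers summed to 80.2 to 102.7 CPM in mutants and 2.80 to 62.5 CPM in controls, mainly through Gja1 in mutants, and 2 of 5 tested, Gja1 and Aldh1l1, rose. The oligodendrocyte lineage list summed to 38.6 to 55.3 CPM in mutants and 24.1 to 30.3 CPM in controls, and all 3 tested, Mbp, Pdgfra and Cspg4, rose, while Olig1, Olig2 and Sox10 were at or below 0.142 CPM in every library. Erythroid markers summed to 5.89 to 20.4 CPM in mutants and 6.61 to 11.2 CPM in controls, with 0 of 5 tested called. Endothelial, mural, meningeal, microglial and choroid plexus lists each summed to 4.10 CPM or less in every library. Among these, Kdr rose in the endothelial list (1 of 2 tested) and Cspg4, shared with the oligodendrocyte list, in the mural list (1 of 5 tested). The part of these cell types in the channel results was not tested. In bulk libraries, fewer cells of a type and less RNA per cell cannot be told apart.

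Of the 72 tested potassium channel genes, 26 passed an adjusted p of 0.05 (edgeR's quasi-likelihood test, Benjamini-Hochberg adjusted over all genes), and 15 rose while 11 fell in the mutants. This was 36.1% of those tested, against 14.9% of all tested genes. By direction, 20.8% rose against 7.92% of all genes, and 15.3% fell against 7.01%. Their median log2 fold change was 0.14 against a median of -0.00081 over all genes. The median size of the log2 fold change, regardless of sign, was 0.707 for the channels and 0.262 for all genes. Without the term for library type, 4 rose (against 1.59% of all genes) and 2 fell (against 0.765%), with 2.36% of all genes called. The 6 called without the term were Kcnh1, Kcnd3, Kcnip1 and Kcnab1, which rose, and Kcnh3 and Kcnv1, which fell. The other 20 had adjusted p between 0.0678 and 0.996 in that fit, with the same direction. The 46 members tested without a call had adjusted p from 0.0557 upward, and the 21 not tested averaged at most 0.243 CPM in either genotype, 1 of them listed at 0 in every library.

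**Figure D1:**
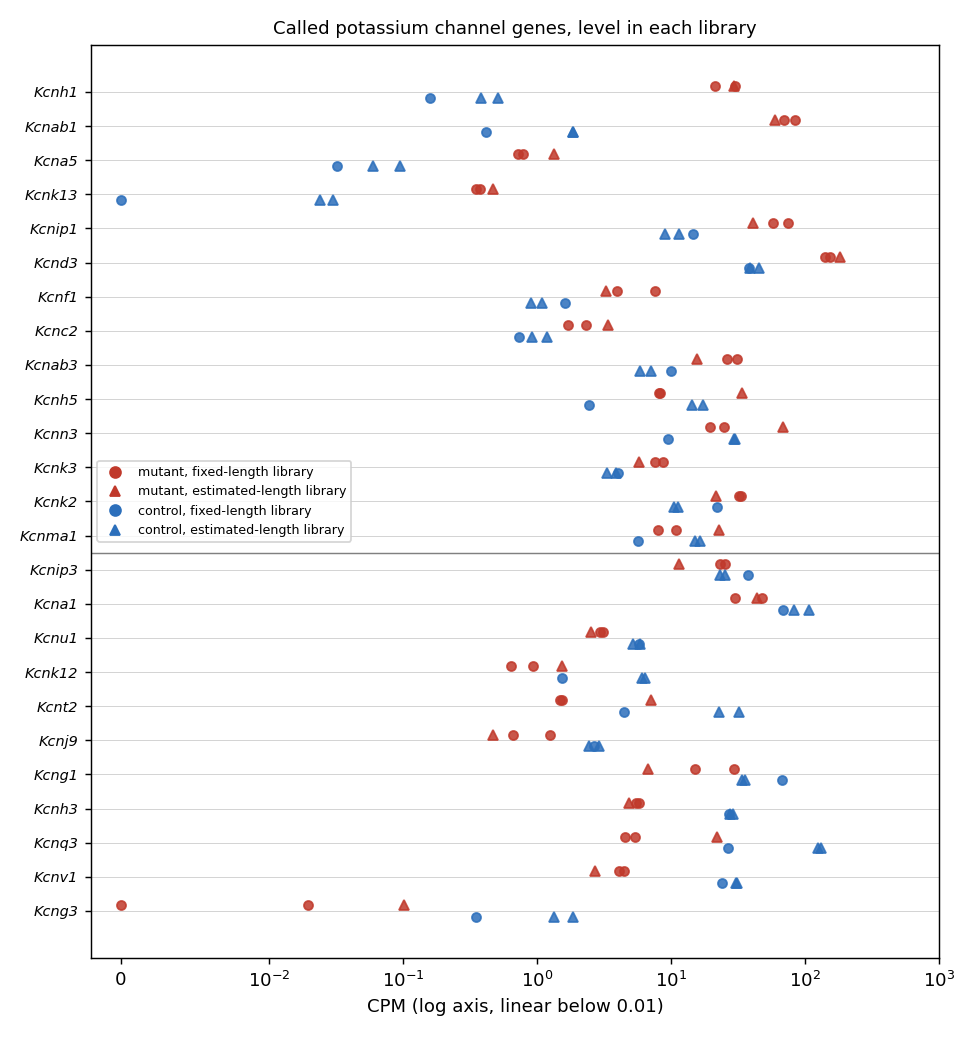
Level of 25 called potassium channel genes in each library, in CPM on a log axis that is linear below 0.01, ordered by log2 fold change with risen genes above the grey line. Each point is 1 library, red for mutant and blue for control, circles for fixed-length and triangles for estimated-length libraries; for 19 of these 25 genes the mutant and control points do not overlap.

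The mutant and control libraries did not overlap in CPM for 27 of the 72 tested channel genes (37.5%), against 15.4% of all tested genes. Of those, 16 were higher in mutants, against 8.8% of all genes, and 11 lower, against 6.64%. Among the 26 called genes, 20 were without overlap, and the 6 others, Kcnn3, Kcnt2, Kcnh5, Kcnk2, Kcnip3 and Kcnma1, overlapped. The genotype effect had the same sign in both library types for 56 of the 72 tested members, against 68.9% of all tested genes. It did so for all 26 called members, and for 99.8% of all called genes, since calls came from both types together.

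Among Kv pore subunits, 6 of 26 tested rose and 3 fell. The EAG family (Kcnh), a branch of voltage-gated channels with a cyclic nucleotide-binding homology domain, moved in both directions. Kcnh1, which encodes EAG1, had 29.7, 21.3 and 29.3 CPM in mutants 1, 2 and 3, against 0.159, 0.506 and 0.379 CPM in controls 1, 2 and 3. The gene was thus close to silent in all controls and clearly expressed in all mutants, including mutant 3. The controls alone would not have held enough reads for testing. Its log2 fold change was 6.21 ± 0.30 (SE, adjusted p = 6.81e-05), a 74.0-fold rise. Within library types the log2 fold change was 7.0 in fixed-length and 5.90 in estimated-length libraries.

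Kcnh5, encoding the related EAG2, had 8.07, 8.19 and 33.8 CPM in mutants 1, 2 and 3, against 2.45, 17.3 and 14.2 CPM in controls 1, 2 and 3. Here the ranges overlapped, but each mutant exceeded the controls of its own library type. The log2 fold change was 1.37 ± 0.18 (adjusted p = 0.00359). Kcnh3, which encodes the forebrain-enriched ELK2 channel, went the opposite way. It had 5.50, 5.72 and 4.86 CPM in mutants 1, 2 and 3, against 27.0, 27.3 and 28.9 CPM in controls 1, 2 and 3. All mutants lay far below all controls, with little spread within either genotype, and the log2 fold change was -2.39 ± 0.12 (adjusted p = 6.82e-05). Exons of Kcnh3 overlap those of Mcrs1 on the opposite strand, and the sources used here do not say whether counting used strand. Mcrs1 had 144.7, 132.8 and 77.8 CPM in mutants 1, 2 and 3, against 144.9, 86.6 and 84.6 CPM in controls 1, 2 and 3, and was not called (adjusted p = 0.443). Kcnh7, encoding ERG3, was not called (log2 fold change -0.11 ± 0.16, adjusted p = 0.715).

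Kcnq3 encodes a Kv7 subunit of the M-channel, which carries a slow current that restrains firing and is damped by muscarinic receptors. Kcnq3 had 4.50, 5.33 and 22.01 CPM in mutants 1, 2 and 3, against 26.7, 125.6 and 130.5 CPM in controls 1, 2 and 3. The mutant of each library type lay well below its controls, and the highest mutant lay just below the lowest control. The log2 fold change was -2.49 ± 0.10 (adjusted p = 3.70e-05), with -2.43 in fixed-length and -2.54 in estimated-length libraries. This was the smallest p-value of the family.

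Levels per length were obtained as TPM, the length-corrected share of transcripts, rescaled over nuclear protein-coding genes, so that genes could be compared within a library. On that scale Kcnq3 had 3.26, 4.25 and 26.5 rescaled TPM in mutants 1, 2 and 3, against 18.4, 137.2 and 148.7 rescaled TPM in controls 1, 2 and 3. The mutant level exceeded a control level only where mutant 3 is set against control 1, which is of the other library type. Kcnq5, which can also contribute to M-channels, had 7.03, 4.25 and 11.3 CPM in mutants 1, 2 and 3, against 11.9, 13.9 and 19.2 CPM in controls 1, 2 and 3, and was not called (adjusted p = 0.0798).

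**Figure D2:**
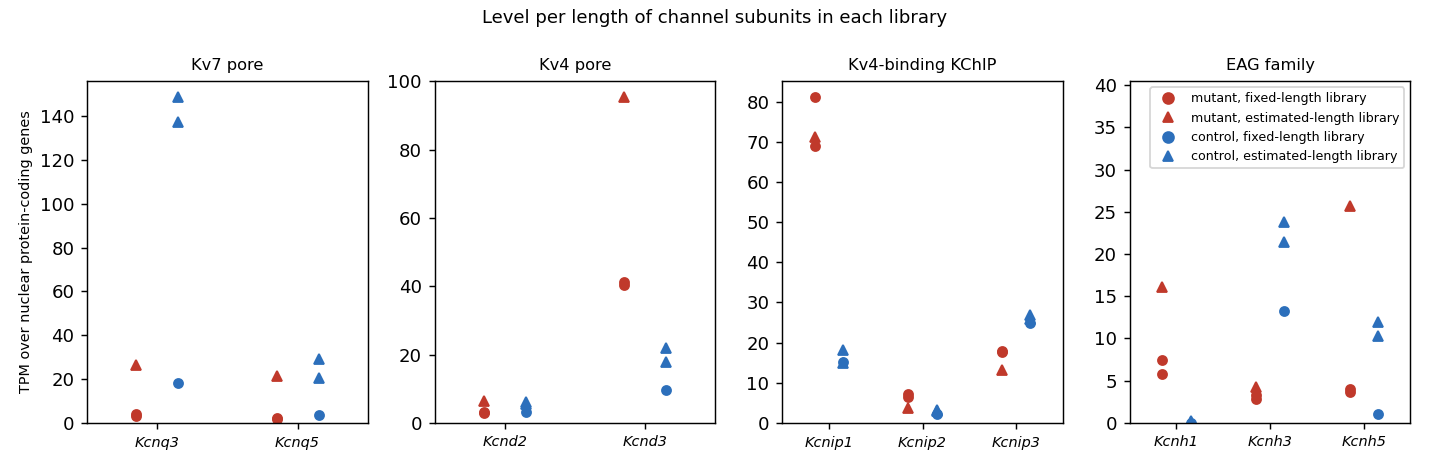
Level per length, in TPM rescaled over nuclear protein-coding genes, of subunits of 4 channel groups, 1 point per library with mutant points left of control points for each gene. Kcnq3, Kcnip3 and Kcnh3 lie lower in mutants of each library type and Kcnd3, Kcnip1 and Kcnh1 higher, while Kcnd2 is at a like level in both genotypes.

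Kv4 channels, encoded by the Kcnd genes, carry the fast transient A-type current, and their cytosolic partners are the KChIP proteins encoded by the Kcnip genes. Kcnd3 had 152.2, 139.9 and 181.3 CPM in mutants 1, 2 and 3, against 38.4, 44.9 and 38.8 CPM in controls 1, 2 and 3. Every mutant was far above every control. The log2 fold change was 2.02 ± 0.10 (adjusted p = 6.82e-05). Kcnd2, the main Kv4 subunit of mature forebrain neurons, had 9.23, 7.41 and 10.6 CPM in mutants and 9.66, 9.97 and 10.9 CPM in controls and was not called (adjusted p = 0.742, log2 fold change -0.094 ± 0.155). The per-length ratio of Kcnd3 to Kcnd2 was 12.5, 14.4 and 15.1 in mutants 1, 2 and 3, against 2.99, 4.06 and 2.91 in controls 1, 2 and 3. The antisense gene Kcnd3os overlaps Kcnd3 and stayed at or below 0.668 CPM in every library.

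Among the remaining Kv pore subunits, Kcna1, the Kv1.1 channel gene of axons, had 30.03, 47.5 and 43.6 CPM in mutants 1, 2 and 3, against 68.6, 82.0 and 106.8 CPM in controls 1, 2 and 3. All mutants lay below all controls, and the log2 fold change was -0.97 ± 0.21 (adjusted p = 0.0243). That call was lost without control 1, control 2, control 3 or mutant 3, with adjusted p up to 0.157. Kcnc2, a fast-deactivating Kv3 subunit, rose at low levels, with 1.70, 2.30 and 3.36 CPM in mutants and 0.731, 0.908 and 1.18 CPM in controls (log2 fold change 1.54 ± 0.25, adjusted p = 0.00898, and 0.104 without mutant 3). Kcna5, a Kv1 subunit named here although it stayed under 1 CPM on average, rose to 0.945 ± 0.340 CPM in mutants, against 0.0620 ± 0.0316 CPM in controls (SD, n = 3 each; adjusted p = 0.000708). It had enough reads for testing through the mutants alone.

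Silent Kv subunits form no channel alone but alter Kv2 channels in which they take part. Of the 7 tested, 1 rose and 3 fell. Kcnv1, a silent subunit of neurons, had 4.09, 4.45 and 2.69 CPM in mutants 1, 2 and 3, against 24.1, 30.7 and 31.0 CPM in controls 1, 2 and 3. The genotypes were well apart, at a log2 fold change of -2.97 ± 0.24 (adjusted p = 0.000451). Kcng1 had 15.1, 29.2 and 6.66 CPM in mutants 1, 2 and 3, against 66.9, 33.5 and 35.3 CPM in controls 1, 2 and 3 (log2 fold change -1.96 ± 0.30, adjusted p = 0.00613). Mutant 2 came near to the lowest control. Kcng3 had 0.0193, 0 and 0.101 CPM in mutants, against 0.350, 1.33 and 1.85 CPM in controls, so it was barely detected in mutants (log2 fold change -3.29 ± 0.43, adjusted p = 0.00331). It had enough reads for testing through the controls alone. Kcnf1 rose, with 7.59, 3.93 and 3.26 CPM in mutants and 1.62, 1.09 and 0.900 CPM in controls (log2 fold change 1.73 ± 0.31, adjusted p = 0.0120). Its call was lost without control 1, control 3 or mutant 3, with adjusted p up to 0.0856. Kcnb2, a Kv2 pore gene with which these subunits can assemble, was not called (adjusted p = 0.578).

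Among auxiliary subunits, 3 of 12 tested rose and 1 fell. Kcnab1, which encodes the Kvbeta1 subunit that confers rapid inactivation on Kv1 channels, had 84.6, 69.9 and 59.2 CPM in mutants 1, 2 and 3, against 0.413, 1.85 and 1.85 CPM in controls 1, 2 and 3. The gene was nearly absent from controls and abundant in all mutants. Its log2 fold change was 5.71 ± 0.44 (adjusted p = 0.000391), with 7.41 in fixed-length and 4.97 in estimated-length libraries (adjusted p = 0.0815 for that difference). Kcnab3 had 26.2, 30.8 and 15.5 CPM in mutants 1, 2 and 3, against 9.92, 5.85 and 7.04 CPM in controls 1, 2 and 3 (log2 fold change 1.39 ± 0.14, adjusted p = 0.00116). Kcnab2, the third beta subunit gene, was not called (log2 fold change -0.23 ± 0.10, adjusted p = 0.189). The per-length ratio of Kcnab1 to Kcnab2 was 3.38, 3.10 and 3.92 in mutants 1, 2 and 3, against 0.0129, 0.0759 and 0.0994 in controls 1, 2 and 3, so the leading beta subunit transcript was Kcnab1 in mutants and Kcnab2 in controls. The antisense gene Kcnab3os, which overlaps Kcnab3, stayed at or below 0.521 CPM in every library.

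Kcnip1, encoding KChIP1, had 74.2, 57.0 and 41.0 CPM in mutants 1, 2 and 3, against 14.5, 11.5 and 8.96 CPM in controls 1, 2 and 3. All mutants were above all controls, with a log2 fold change of 2.08 ± 0.15 (adjusted p = 0.000321). Kcnip3, encoding KChIP3, which also acts as the calcium-sensitive repressor DREAM, fell. It had 25.4, 23.0 and 11.3 CPM in mutants 1, 2 and 3, against 37.4, 25.1 and 23.1 CPM in controls 1, 2 and 3 (log2 fold change -0.85 ± 0.13, adjusted p = 0.00635). The per-length ratio of Kcnip1 to Kcnip3 was 4.53, 3.88 and 5.39 in mutants 1, 2 and 3, against 0.612, 0.678 and 0.571 in controls 1, 2 and 3. The order of these transcripts was thus opposite in the genotypes in every library. Kcnip2 was not called (log2 fold change 0.98 ± 0.27, adjusted p = 0.0557), but it passed without mutant 3 (adjusted p = 0.0343). Kcnmb4, the beta subunit of neuronal BK channels, was among the most abundant members and was not called, with 29.8, 28.4 and 16.8 CPM in mutants and 24.0, 15.7 and 15.1 CPM in controls (adjusted p = 0.190).

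Promoter windows, from 250 bases before to 50 after each start, were read from RefSeq sequences of build GRCm38.p6 for 69 of the 93 genes, 94 windows in all. They are shown for the genes that rose at least 4-fold to more than 20 CPM in mutants, Kcnip1, Kcnh1, Kcnab1 and Kcnd3. Capitals mark ACATCTG, the core of the site that RP58 is known to bind, or its reverse complement. The core contains the E-box CANNTG, so that matches to the one are also matches to the other.
Kcnip1, chr11:33843637-33843936, minus strand: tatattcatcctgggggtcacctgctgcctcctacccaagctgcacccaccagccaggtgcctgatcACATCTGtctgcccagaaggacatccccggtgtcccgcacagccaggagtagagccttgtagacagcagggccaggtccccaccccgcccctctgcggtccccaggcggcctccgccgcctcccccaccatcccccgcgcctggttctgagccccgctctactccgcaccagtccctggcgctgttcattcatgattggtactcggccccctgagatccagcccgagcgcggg
Kcnip1, chr11:33680633-33680932, minus strand: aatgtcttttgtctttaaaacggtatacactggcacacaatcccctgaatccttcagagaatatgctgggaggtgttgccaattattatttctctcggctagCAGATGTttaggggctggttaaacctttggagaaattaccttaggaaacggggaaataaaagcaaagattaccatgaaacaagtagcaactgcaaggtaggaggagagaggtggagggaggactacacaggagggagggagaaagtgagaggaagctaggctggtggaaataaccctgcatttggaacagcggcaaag
Kcnh1, chr1:192190527-192190826, plus strand: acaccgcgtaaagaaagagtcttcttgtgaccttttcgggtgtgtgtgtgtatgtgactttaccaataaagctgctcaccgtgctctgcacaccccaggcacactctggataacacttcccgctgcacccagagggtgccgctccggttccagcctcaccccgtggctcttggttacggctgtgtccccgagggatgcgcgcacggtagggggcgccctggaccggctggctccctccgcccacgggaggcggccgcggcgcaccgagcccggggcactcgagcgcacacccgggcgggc
Kcnab1, chr3:65108764-65109063, plus strand: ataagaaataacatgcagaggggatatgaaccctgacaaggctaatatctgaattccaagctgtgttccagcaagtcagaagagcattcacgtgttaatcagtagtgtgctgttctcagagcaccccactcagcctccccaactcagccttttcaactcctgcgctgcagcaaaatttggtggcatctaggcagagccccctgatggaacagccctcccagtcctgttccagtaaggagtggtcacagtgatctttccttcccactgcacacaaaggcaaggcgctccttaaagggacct
Kcnd3, chr3:105451640-105451939, plus strand: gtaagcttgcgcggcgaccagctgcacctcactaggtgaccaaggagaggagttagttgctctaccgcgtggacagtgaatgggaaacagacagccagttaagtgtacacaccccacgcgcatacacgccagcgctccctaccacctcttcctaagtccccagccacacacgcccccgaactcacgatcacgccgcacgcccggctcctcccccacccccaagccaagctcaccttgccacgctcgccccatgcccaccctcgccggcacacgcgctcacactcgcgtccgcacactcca

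The core was found on either strand in 2 of 3 windows of Kcnip1, beginning 183 and 148 bases before the start. The first of these windows lies by the start of the Kcnip1 transcripts that held most of its counts, and its letters also match the longer RP58 consensus, which 0.639% of all 32851 promoter windows hold. No listed transcript start lay near the second window, so only the first core lies by the start of a counted transcript. The windows of Kcnh1, Kcnab1 and Kcnd3 hold no core. For the printed Kcnab1 and Kcnd3 windows, the nearest listed transcript start lay 370 and 440 bases from the start used. Neither window thus holds that transcript start, and the bases around it were not read for the core. Among genes that rose, 2 of 22 windows (9.09%) held it, both of Kcnip1, and these 22 windows covered 12 of the 15 genes. Among genes that fell, 0 of 7 windows held it, but these windows covered only 5 of the 11 genes. Among tested genes that were not called 3 of 47 (6.38%) did, in Kcna4, Kcnip4 and Kcnmb1. Among genes not tested for want of reads, 2 of 18 windows (11.1%) held it, in Kcna7 and Kcnk15, and the window of Kcna7 also matches the longer consensus. The share over all promoter windows was 4.43% (1454 windows), and a match to CANNTG was in 72.3% of all windows and 73.4% of those of potassium channel genes.

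Among calcium- and sodium-activated channels, 2 of 7 tested rose and 2 fell. Kcnn3, encoding the small-conductance channel SK3 that follows calcium entry, had 19.5, 24.9 and 68.4 CPM in mutants 1, 2 and 3, against 9.44, 29.6 and 30.1 CPM in controls 1, 2 and 3. The ranges overlapped across library types, and within each type the mutants were above the controls (log2 fold change 1.21 ± 0.11, adjusted p = 0.000860). Kcnn2, encoding SK2, had 24.3, 37.5 and 48.0 CPM in mutants 1, 2 and 3, against 39.1, 96.5 and 100.6 CPM in controls 1, 2 and 3, and missed the threshold (adjusted p = 0.0873). A call was reached without mutant 2 (adjusted p = 0.00270) and with DESeq2 (adjusted p = 0.00743). Kcnn1, encoding SK1, was not called either (adjusted p = 0.375).

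Kcnt2, a sodium-activated channel gene, had 1.49, 1.53 and 7.005 CPM in mutants 1, 2 and 3, against 4.42, 32.0 and 22.8 CPM in controls 1, 2 and 3 (log2 fold change -1.76 ± 0.20, adjusted p = 0.00184). Only mutant 3 reached the range of the controls. It exceeded control 1, which is of the other library type, and lay below controls 2 and 3 of its own type. Kcnma1, the BK channel gene, had a log2 fold change of 0.64 ± 0.16 (adjusted p = 0.0440), and its call was lost without control 1, control 2, control 3 or mutant 3, with adjusted p up to 0.231. Kcnu1, a relative of Kcnma1 known for its role in sperm, had 3.11, 2.92 and 2.53 CPM in mutants and 5.72, 5.85 and 5.14 CPM in controls (log2 fold change -1.01 ± 0.18, adjusted p = 0.0126). That call was lost without control 1, control 2 or mutant 3, with adjusted p up to 0.0759.

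Among inward rectifiers, which hold the membrane near rest, 1 of 11 tested was called, and it fell. Kcnj9, a subunit of G protein-gated (GIRK) channels, fell at low levels. It had 0.656, 1.24 and 0.466 CPM in mutants 1, 2 and 3, against 2.67, 2.44 and 2.89 CPM in controls 1, 2 and 3 (log2 fold change -1.91 ± 0.37, adjusted p = 0.0177). Its call was lost without control 2, control 3, mutant 1 or mutant 3, with adjusted p up to 0.0995. Kcnj3, the most abundant GIRK subunit here, had 42.1, 40.7 and 50.8 CPM in mutants and 46.0, 49.7 and 52.3 CPM in controls and was not called (adjusted p = 0.565). Whether inward rectifiers differ from the other families in their share of calls was not tested.

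Tandem-pore channels carry background leak currents, and 3 of 9 tested rose while 1 fell. Kcnk2, encoding the mechanosensitive TREK-1, had 32.1, 33.1 and 21.5 CPM in mutants 1, 2 and 3, against 21.97, 10.5 and 11.2 CPM in controls 1, 2 and 3 (log2 fold change 0.78 ± 0.12, adjusted p = 0.00595, and 0.0580 without mutant 3). Kcnk3, encoding the acid-sensitive TASK-1, had 7.51, 8.62 and 5.79 CPM in mutants and 4.01, 3.88 and 3.34 CPM in controls. Its call (adjusted p = 0.0272) held without mutant 2 alone and was lost without each other library, with adjusted p up to 0.171. Kcnk12 fell, with 0.637, 0.935 and 1.52 CPM in mutants and 1.53, 6.39 and 6.09 CPM in controls (log2 fold change -1.50 ± 0.32, adjusted p = 0.0260). It was not called without control 2, control 3, mutant 1 or mutant 3, and without mutant 3 the log2 fold change was -0.92. Kcnk13, outside the naming rule because it stayed under 1 CPM, rose to 0.396 ± 0.0620 CPM in mutants, against 0.0178 ± 0.0157 CPM in controls (SD, n = 3 each; adjusted p = 0.00371). It totalled 64 reads over the 6 libraries and had enough for testing through the mutants alone.

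**Figure D3:**
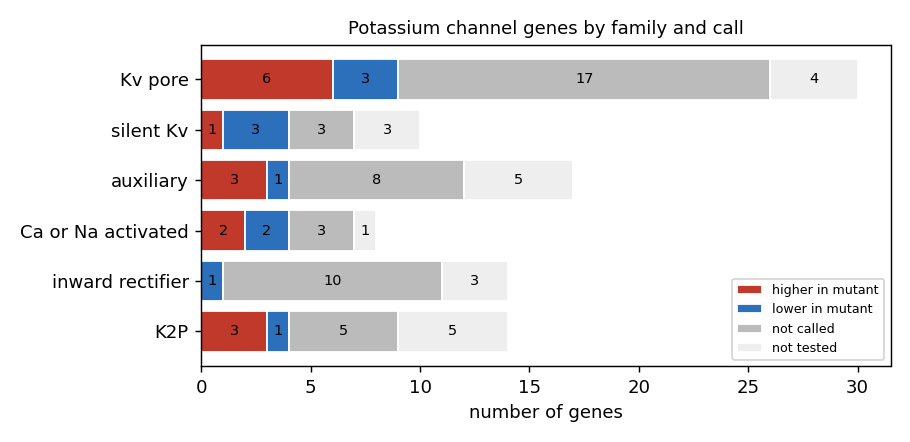
Number of potassium channel genes in each family that were called higher or lower in mutants, tested without a call, or not tested for want of reads. The share of tested genes called was 34.6% for Kv pore, 57.1% for silent Kv, 33.3% for auxiliary, 57.1% for calcium- or sodium-activated, 9.09% for inward rectifier and 44.4% for K2P genes, and differences between these shares were not tested.

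The effect of genotype was then read within each library type, in a fit that pools the spread because each type holds 1 genotype with a single library. In fixed-length libraries 14 channel genes rose (6.05% of all genes did) and 7 fell (3.41% of all genes did), with 9.46% of all genes called. In estimated-length libraries 12 rose (4.6% of all genes did) and 10 fell (3.32% of all genes did), with 7.92% of all genes called, and 18 genes (25% of those tested) were called in both, against 5.91% of all genes. The effect differed between library types for 0 of the 72 genes after adjustment in edgeR, against 0.153% of all genes, and for 8 (11.1%) at an unadjusted p under 0.05, against 7.19% of all genes. Kcnab1 and Kcnv1 were among the 8, Kcnab1 with an adjusted p of 0.0815 and Kcnv1 with 0.331.

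**Figure D4:**
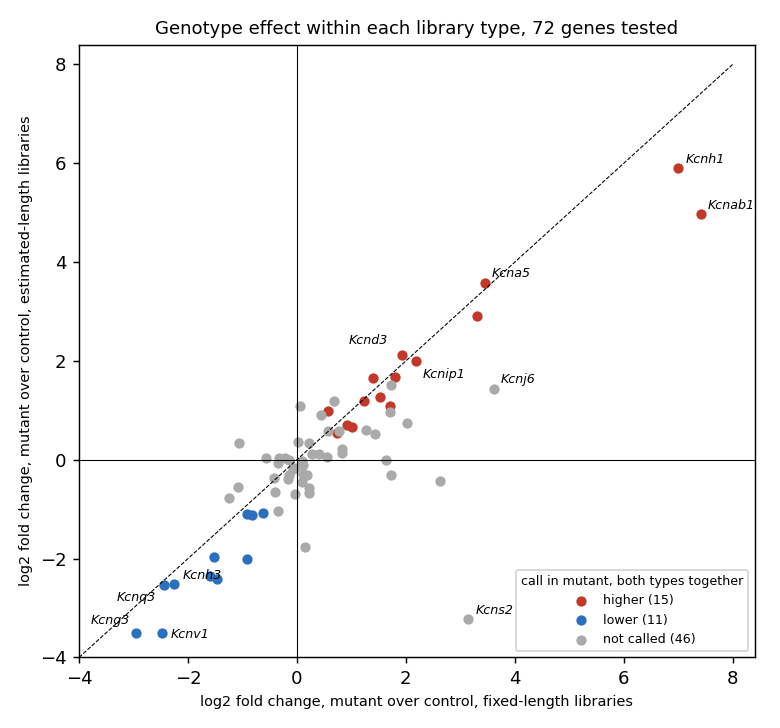
Log2 fold change of mutant over control in fixed-length libraries (horizontal axis) and in estimated-length libraries (vertical axis) for the 72 tested channel genes, coloured by call; the dashed line marks equal values. All 26 called genes lie in the quadrants where both signs match, and Kcns2 is the labelled gene with opposite signs.

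By level per length, averaged over the controls, Kcnn2 was at rank 2 among the potassium channel genes, at 101.6 rescaled TPM, and Kcnq3 at rank 3, at 101.4. In the mutants Kcnn2 was at rank 6, with 47.0, and Kcnq3 at rank 19, with 11.3. Kcnip1 and Kcnab1 took ranks 2 and 3 in mutants, at 73.8 and 59.3, and ranks 20 and 49 in controls, at 16.0 and 1.33. Kcnd3 held rank 4 in mutants, at 59.0, and rank 18 in controls, at 16.5. Kcnv1 held rank 45 in mutants and 19 in controls. These ranks describe means over libraries of both types, and Kcnq3 in particular varied between 18.4 in control 1 and 148.7 in control 3. The types are unevenly spread over the genotypes, so shifts in mean level and rank mix genotype with library type. Kcnn2, which was not called, had 44.4 in control 1, against 27.0 and 46.1 in mutants 1 and 2. In the estimated-length libraries it had 124.5 and 135.9 in controls 2 and 3, against 67.9 in mutant 3.

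The same test was run on single transcripts, with kallisto's division of reads between overlapping models as a source of uncertainty. Of the tested transcripts of potassium channel genes 8.03% were called, against 1.74% of all transcripts. Of them 7 rose and 4 fell, against 1.11% and 0.637% of all transcripts. Of these 11 transcripts, 10 belonged to genes that were called as a whole. The other was a coding transcript of the Kv1 gene Kcna6 (ENSMUST00000112242), with 0.0221, 0 and 0 CPM in mutants 1, 2 and 3, against 5.44, 1.64 and 1.64 CPM in controls 1, 2 and 3 (log2 fold change -6.19 ± 0.58, adjusted p = 0.0162). The longer Kcna6 model (ENSMUST00000040751), annotated as subject to nonsense-mediated decay, had 28.6, 30.6 and 20.0 CPM in mutants and 20.4, 27.9 and 30.5 CPM in controls and was not called (adjusted p = 0.996). Kcna6 as a whole was not called (adjusted p = 0.187). The rise of Kcnab1 was carried by 1 coding transcript (ENSMUST00000049230), at 94.4, 74.6 and 41.9 CPM in mutants 1, 2 and 3, against 0.442, 0.644 and 0.496 CPM in controls 1, 2 and 3 (adjusted p = 0.00507).

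Beyond the channels themselves, a list of 48 partners held pacemaker channels, Kv1 and Kv4 complex members, scaffolds, sulfonylurea receptors and sodium pumps. Of 46 tested, 6 rose and 7 fell (28.3%, against 14.9% of all genes). Dlg2, which encodes the scaffold PSD-93 that clusters Kv1 channels, had 3.49, 2.66 and 3.62 CPM in mutants 1, 2 and 3, against 36.2, 60.8 and 57.9 CPM in controls 1, 2 and 3 (log2 fold change -3.77 ± 0.16, adjusted p = 5.12e-05). Cntnap2, an axonal partner of Kv1 channels, went up, with 439.8, 426.6 and 276.3 CPM in mutants and 111.4, 119.0 and 73.8 CPM in controls (adjusted p = 0.00236). Amigo1, an adhesion protein bound to Kv2 channels, rose as well, with a log2 fold change of 1.31 ± 0.09 (adjusted p = 0.000201). The pacemaker channel gene Hcn4 rose too, with a log2 fold change of 1.30 ± 0.10 (adjusted p = 0.000416). Lrrc55, an auxiliary subunit of BK channels, fell by 1.52 on the log2 scale (adjusted p = 0.00120). Dpp6, an accessory subunit of Kv4 channels, was not called (adjusted p = 0.371).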

How the data were processed

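Libraries were made with a strand-preserving kit from total RNA, per the labels' protocols, and per the submitters' processing notes FastQC and kallisto were used with the mm9 build. Each deposited table gives, for 97251 transcripts, the length and effective length in bases, the estimated count of reads as deposited without normalization, and the TPM as scaled by the authors. The sources used here do not say whether counting used strand.

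Transcripts were matched to GENCODE vM21 (84637, or 87.0%), and the estimated counts of each gene were added up, then rounded. The main test was the edgeR 4.0.16 quasi-likelihood test in R 4.3.3 with TMM scaling, filterByExpr, a prior count of 2, a term for library type (from length minus effective length) and Benjamini-Hochberg adjustment over all genes tested. DESeq2 1.42.0 and limma 3.58.1 (voom) were alternatives. The main fit was tested on simulated data with a spread common to all genes. Of simulated 2-fold changes 70% were recovered, and of 4-fold changes 100%. A gene without a call may therefore still differ. Samples were grouped by genotype from the labels, and replicate numbers follow accession order.

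The members, the lists of partners, families and markers, and the term for library type were chosen with earlier results of these data known. Named genes were called members averaging at least 1 CPM in the higher genotype and the 8 members with the highest mean TPM. The leading member of each family and up to 6 called partners were named as well. Other genes were named outside this rule, among them Kcnd2, Kcnh7, Kcnq5, Kcnb2, Kcnab2, Kcnip2, Kcna6, Kcna5, Kcnk13 and the partner Dpp6. The search for genes most like the member with the smallest p was not made, because the libraries fall into separate library types. Deposited TPM was summed to genes and rescaled over nuclear protein-coding genes before levels were compared between genes. Counts cover all members, and some members and partners are not reported here by name. Genes other than potassium channel genes, their partners, Zbtb18 and markers were not analysed here one by one.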

Additional observations from a re-analysis of the deposited data

How the results depend on the processing

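Over all genes, 2537 were called, against 400 without the library type term and 4029 with DESeq2, and 1294 to 3034 when 1 library was left out. Of the channel genes 15 rose, against 4 without the term and 12 to 16 with 1 library left out, and 11 fell, against 2 without the term and 7 to 13 with 1 library left out (7 without control 2 or without mutant 3). Of the partners 6 rose, against 1 without the term and 4 to 7 with 1 library left out, and 7 fell, against 1 without the term and 3 to 9 with 1 library left out. The cause was not tested. Kcnj3, which was not called, had a log2 fold change of -0.077 in all libraries and -0.149 to 0.0144 with 1 library left out, the positive value without control 1. With an offset for effective length, Kcnma1 lost its call (adjusted p = 0.0798). In all 6 fits with 1 library left out 17 of the 26 called genes were called, and none of the 26 changed sign. The matching shares over all called genes were not computed. Without control 1 or mutant 3 the effect rests on 1 library type, and 99.8% of all called genes had the same sign in both types. Lone libraries left in a genotype of a library type are assumed to vary like the others. No paired analysis was possible because the labels give no replicate numbers that the genotypes share. Genes under about 1 CPM rest on few reads. The filter asked for enough reads in only as many libraries as 1 genotype holds. Kcnh1, Kcna5, Kcnk13 and Kcng3, among others, thus entered the test through the genotype in which they were high.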
